A study of Mus musculus with 25 samples.

Results

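A set of 10 genes that mark lipid-associated macrophages, the recruited macrophages that take up lipid in an injured fatty liver, was followed across a mouse liver RNA-seq series: Trem2, Gpnmb, Spp1, Cd9, Lpl, Cd63, Clec7a, Fabp5, Itgax and Ccr2. They were taken by name from the gene table, and all 10 were found among its 56980 genes. The livers came from male C57BL/6J mice, aged 8 weeks at the start and 20 weeks at the end of a 12-week experiment, and poly-A RNA of whole liver was sequenced. The question behind the series is how mannose, a hexose sugar given in the drinking water, acts on steatohepatitis.

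Mice of the normal diet group ate chow and drank plain water (n = 5). FAT-MASH mice (n = 3) ate chow rich in fat (21.1%), sucrose (41%) and cholesterol (1.25%), drank water with fructose at 23.1 g/L and glucose at 18.9 g/L, and received carbon tetrachloride (CCl4), a liver toxin, by intraperitoneal injection each week. Mice on that regimen with mannose formed 4 groups of 3: 5% or 20% mannose for all 12 weeks (prevention), or 5% or 20% for the final 6 weeks (therapy). On normal diet, 2 mice had 5% mannose and 3 had 20% mannose, each labelled with 12 weeks, without CCl4 or sugar water. Diet and toxin were given together, so their effects cannot be told apart. The labels give 2 batches: the 15 regimen libraries and normal diet replicates 1 to 3 are in batch 1, and normal diet replicates 4 and 5 with the mannose groups on normal diet are in batch 2. Totals ran from 31298299 to 56010646 counts in batch 1 and from 35971380 to 49752882 in batch 2. Replicates are called biological in the labels, which do not say which mice shared a cage.

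A resident macrophage of the liver is called a Kupffer cell. In fatty, injured liver, monocytes that carry the chemokine receptor CCR2 enter from the blood, and some of them become macrophages that crowd around lipid-laden hepatocytes and scars and turn on lysosomal, lipid-handling and matrix genes. TREM2, a receptor for lipids and lipoproteins that signals through the adaptor TYROBP, is the best-known marker of this state. Several of the genes are also made by other liver cells: Spp1 and Cd9 by bile duct cells (cholangiocytes), Lpl and Fabp5 by fat cells, and Itgax by dendritic cells. Whole-liver RNA cannot separate more cells of a type from more RNA per cell.

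Promoter sequence is shown for 4 members, since Trem2 and Gpnmb were low in nearly all chow livers and high on the regimen, and Spp1 and Cd63 were higher with 20% therapy than in FAT-MASH. The sequences are RefSeq's for build GRCm38.p6, the 250 bases before the listed start, 5′ to 3′ on the gene's strand. They are chr17:48346151-48346400 for Trem2, chr6:49036268-49036517 for Gpnmb, chr5:104434861-104435110 for Spp1 (the first of its listed starts) and chr10:128909095-128909344 for Cd63, all on the plus strand. Capitals mark matches, on either strand, to GAGGAAG (a core of PU.1 sites, PU.1 being the master transcription factor of macrophages) or TGANTCA (AP-1).
Trem2: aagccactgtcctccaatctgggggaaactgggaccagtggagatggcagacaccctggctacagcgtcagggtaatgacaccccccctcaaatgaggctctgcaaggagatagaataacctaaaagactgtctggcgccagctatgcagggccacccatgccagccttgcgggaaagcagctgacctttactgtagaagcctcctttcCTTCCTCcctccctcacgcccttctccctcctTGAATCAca
Gpnmb: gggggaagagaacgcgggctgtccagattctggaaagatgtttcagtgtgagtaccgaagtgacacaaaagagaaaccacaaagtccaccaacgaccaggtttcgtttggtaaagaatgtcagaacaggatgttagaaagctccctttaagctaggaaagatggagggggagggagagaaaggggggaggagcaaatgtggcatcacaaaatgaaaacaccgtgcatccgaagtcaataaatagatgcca
Spp1: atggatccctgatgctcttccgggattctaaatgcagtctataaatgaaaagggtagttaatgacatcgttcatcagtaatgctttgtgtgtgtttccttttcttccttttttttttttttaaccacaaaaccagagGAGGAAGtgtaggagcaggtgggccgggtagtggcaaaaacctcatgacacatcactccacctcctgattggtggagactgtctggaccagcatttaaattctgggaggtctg
Cd63: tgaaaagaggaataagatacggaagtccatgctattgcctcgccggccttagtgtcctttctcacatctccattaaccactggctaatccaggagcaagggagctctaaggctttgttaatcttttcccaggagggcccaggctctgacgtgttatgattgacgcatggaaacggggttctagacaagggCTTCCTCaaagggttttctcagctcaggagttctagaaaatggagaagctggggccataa
Of the 8 members with an entry, 3 held GAGGAAG, namely Trem2, Spp1 and Cd63, and 2 held TGANTCA, namely Trem2 and Itgax. Among all 32851 promoters, 10.6% held the first motif and 6.75% the second. None of the 8 held CACGTG, the E-box read by lysosomal regulators, or TCATGTG, the M-box read by MITF, which occur in 6.02% and 3.25% of all promoters. A match is a description of letters, and its absence says only that these letters were not in this window.

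Levels are CPM, counts per 1000000 counts of the library, scaled to a common composition over the 25 libraries, and changes are log2 fold changes ± standard error from edgeR's quasi-likelihood test, with p-values adjusted by Benjamini-Hochberg over all genes tested and called at 0.05. FAT-MASH was compared with normal diet within batch 1 (3 against 3). The regimen raised 6 of the 10 genes (Trem2, Clec7a, Ccr2, Cd63, Cd9 and Lpl), and 7.81% of the 19571 genes tested were called higher in that comparison. The median log2 fold change was 1.88 for the 10 genes and 0.03 for all genes tested. For 7 genes (these 6 and Spp1), every one of the 15 regimen libraries lay above every one of the 10 chow libraries, whatever the mannose. The share of all genes that separate in this way is not reported here, so the 7 are a description only.

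**Figure D1:**
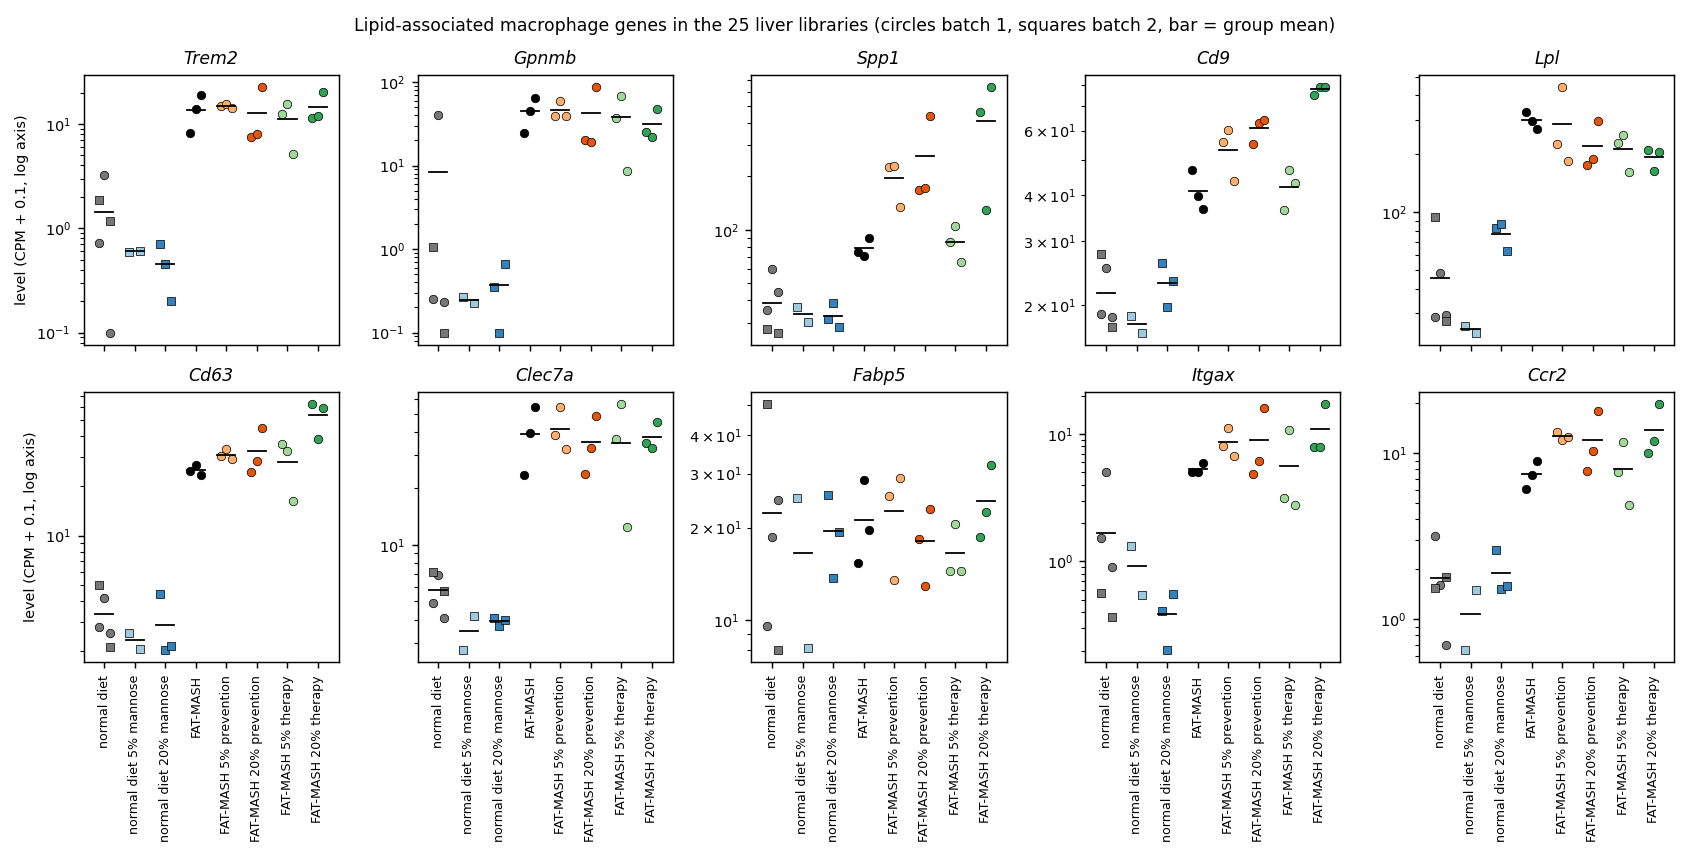
Level of each gene (CPM + 0.1, log axis) in the 8 groups; each point is 1 library (circles batch 1, squares batch 2) and each bar a group mean. The regimen groups lie above the normal-diet groups for 7 genes; normal diet replicate 2 reaches 40.3 CPM for Gpnmb, and Fabp5 overlaps throughout.

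Trem2 lies at chr17:48653429-48661175 (GRCm39, as in all gene positions given here, plus strand). Its level in normal diet replicates 1 to 5 was 0.623, 3.18, 0.0, 1.76 and 1.07 CPM, and in the 3 FAT-MASH livers 8.01, 13.8 and 18.9 CPM. The lowest FAT-MASH liver was above the highest chow liver, and the 0 in replicate 3 allows up to 0.10 CPM (a floor of 3 counts, counting error only). That floor takes counts as independent, and it would be higher if both reads of a pair were counted. Trem2 rose by 3.36 ± 0.70 on the log2 scale (adjusted p = 0.00302). With mannose on the regimen its level was 14.1 to 15.3 CPM under 5% prevention, 7.47 to 22.6 under 20% prevention, 5.01 to 15.5 under 5% therapy and 11.3 to 20.1 under 20% therapy. These ranges all overlap that of FAT-MASH, and the differences from it lay between -0.30 and 0.12 (log2, SE 0.60), none of them called. On normal diet with mannose it was at 0.496 and 0.509 CPM (5%) and 0.102 to 0.615 CPM (20%), below normal diet replicates 4 and 5, though neither difference was called (20%: -1.98 ± 0.85, adjusted p = 0.856).

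Clec7a, at chr6:129438554-129449742 (minus strand), encodes dectin-1, a receptor for fungal glucans. Its level was 4.83, 6.77, 3.97, 7.08 and 5.58 CPM in normal diet replicates 1 to 5 and 23.6, 39.4 and 54.5 CPM in FAT-MASH. The groups were far apart, and Clec7a rose by 2.91 ± 0.43 (adjusted p = 0.000148). Under mannose on the regimen it spanned 12.3 CPM (5% therapy replicate 3) to 56.1 CPM (5% therapy replicate 2), and no difference from FAT-MASH was called.

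Ccr2, at chr9:123901987-123913594 (plus strand), encodes the receptor that draws monocytes towards CCL2. Chow livers held 3.09, 1.51, 0.6, 1.44 and 1.7 CPM and FAT-MASH livers 5.97, 7.26 and 8.9 CPM. The ranges did not overlap, and Ccr2 rose by 2.06 ± 0.43 (adjusted p = 0.00323). In the 5% prevention livers it was at 13.3, 12.0 and 12.5 CPM and in the 20% therapy livers at 10.01, 11.8 and 19.7 CPM, all above the FAT-MASH livers. Those differences were 0.77 ± 0.40 (adjusted p = 0.375) and 0.90 ± 0.40 (adjusted p = 0.121), neither called. Both passed in fits of only the 6 libraries compared (adjusted p = 0.0425 and 0.0304), and the second also when library totals alone set the scale (1.20, adjusted p = 0.0346).

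Itgax, at chr7:127728719-127749829 (plus strand), encodes CD11c, an integrin subunit of dendritic cells and of lipid-laden macrophages. Its level was 1.43, 4.96, 0.8, 0.463 and 0.268 CPM in normal diet replicates 1 to 5 and 4.95, 4.98 and 5.86 CPM in FAT-MASH. Replicate 2 of normal diet lay within the FAT-MASH range and the other 4 chow livers well below it. The difference was 1.11 ± 0.60 (adjusted p = 0.248), not called, and without that replicate 2.21 ± 0.63 (adjusted p = 0.0335). Itgax passed against normal diet in 5% prevention (1.81 ± 0.60, adjusted p = 0.0355), 20% prevention (1.88 ± 0.60, adjusted p = 0.0203) and 20% therapy (2.15 ± 0.60, adjusted p = 0.0085). These calls were lost when single libraries were left out: 5% prevention without normal diet replicate 1 or 3 or without its own replicate 1 or 2 (adjusted p from 0.0668 to 0.143), 20% prevention without normal diet replicate 1 or 3 or its own replicate 3 (0.0869 to 0.171), and 20% therapy without its replicate 3 (0.0518).

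Gpnmb, at chr6:49013480-49047863 (plus strand), encodes a lysosomal and cell-surface glycoprotein of phagocytes and pigment cells. Normal diet replicates 1 to 5 held 0.156, 40.3, 0.133, 0.972 and 0.0 CPM. The 3 FAT-MASH livers held 24.3, 45.0 and 64.3 CPM. A single chow liver, replicate 2, thus reached the regimen range, while the other 9 chow libraries, mannose groups included, stayed below 1 CPM. The log2 difference of 1.70 ± 1.05 (adjusted p = 0.33) was not called, and without replicate 2 it was 8.21 ± 1.21 (adjusted p = 0.000213). The same held against the mannose groups: log2 differences of 1.74, 1.63, 1.46 and 1.19 (5% prevention, 20% prevention, 5% therapy, 20% therapy) became 8.26, 8.14, 7.98 and 7.71 without it, with adjusted p-values from 6.89e-05 to 0.000297. Without replicate 2, the chow side of these comparisons is replicates 1 and 3, which held 6 and 4 counts of Gpnmb. The sizes from 7.71 to 8.26 rest on those few counts.

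In normal diet replicate 2, 8 genes were at least 4-fold above the highest of the other 4 normal-diet livers and at 1 CPM or more, against 32, 1, 45 and 3 genes in replicates 1, 3, 4 and 5. Beside Gpnmb these included Mmp12, the macrophage elastase, at 19.9 CPM against at most 1.16 CPM in the others. Adam8, a myeloid cell protease, was at 2.75 CPM against 0.567 CPM, and the transcription factor gene Klf5 at 1.09 CPM against 0.208 CPM. Thbs4, Rgs16 and B4galnt2 were the other named genes. Replicate 2 was also highest among the 5 for Trem2 and Spp1, though by smaller gaps. Its summed level of the 10 pan-macrophage markers was 305 CPM, inside the 293 to 312.5 CPM of the normal-diet livers. The 5 pigment-cell markers summed to 12.1 CPM in replicate 2, below the 12.3 and 12.4 CPM of replicates 1 and 3 and above the 0.533 to 4.45 CPM of the regimen livers. Mlana, Tyr and Tyrp1 were at 0 in all 5 normal-diet livers, and Pmel was highest in replicate 2, at 0.744 CPM. The sum in these livers was thus mostly the remaining marker, Dct. The part of pigment cells in Gpnmb was not tested.

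**Figure D2:**
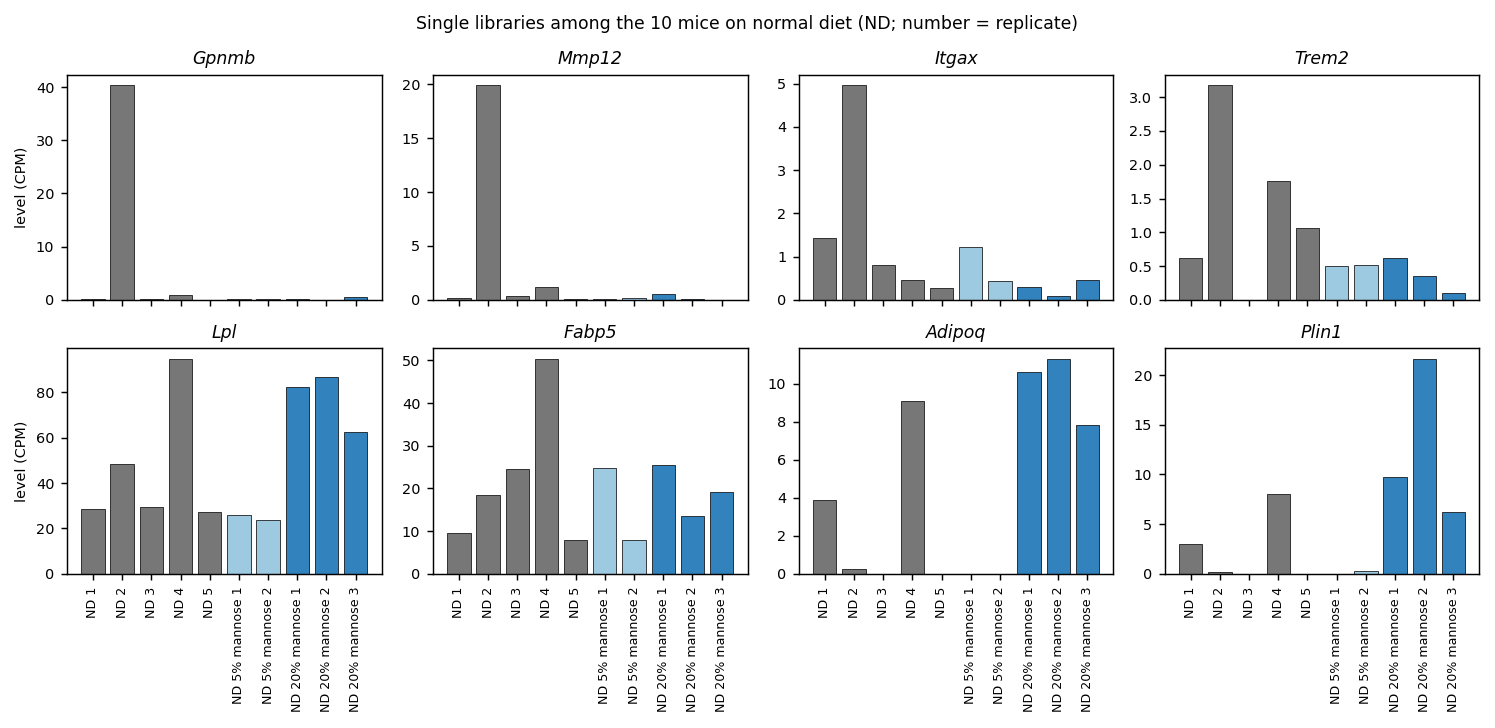
Level (CPM) of the members Gpnmb, Itgax, Trem2, Lpl and Fabp5, of Mmp12, and of the fat-cell genes Adipoq and Plin1 in each of the 10 chow libraries (bars, numbered by replicate). Replicate 2 carries Gpnmb, Mmp12 and Itgax; replicate 4 and the 20% mannose livers carry Lpl, Adipoq and Plin1.

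Cd9, at chr6:125437229-125471754 (minus strand), encodes a tetraspanin, a membrane organiser found on many cells. Its level was 18.8, 25.2, 18.5, 27.5 and 17.4 CPM on normal diet and 46.7, 39.6 and 36.6 CPM in FAT-MASH. It rose by 0.98 ± 0.14 (adjusted p = 0.00011), about 1.97-fold, and no chow liver reached the FAT-MASH range. It shares 218 of its 2044 exon bases with Gm26728 on the opposite strand, a gene at no more than 0.322 CPM. Cd63, at chr10:128736858-128748691 (plus strand), encodes a tetraspanin of late endosomes and lysosomes. It went from 2.7, 4.12, 2.47, 4.91 and 2.01 CPM to 24.4, 26.7 and 23.1 CPM, a rise of 2.99 ± 0.29 (adjusted p = 1.31e-06) between groups that were tight and far apart. The table also counts a near-copy, the pseudogene Cd63-ps, at 1.35 to 3.89 CPM on normal diet and 14.2 to 21.1 CPM in FAT-MASH, so how reads divide between the gene and its copy is uncertain.

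Lpl, at chr8:69333143-69360100 (plus strand), encodes lipoprotein lipase, which frees fatty acids from circulating lipoproteins and is low in healthy adult liver. FAT-MASH livers held 327, 295 and 269 CPM, against 28.8, 48.5, 29.3, 94.5 and 27.2 CPM on normal diet. The groups did not overlap, and Lpl rose by 3.06 ± 0.30 (adjusted p = 1.23e-06). Under mannose on the regimen it was at 227, 248 and 160 CPM in 5% therapy and at 210, 163 and 204 CPM in 20% therapy, all below the FAT-MASH livers, while the ranges of both prevention groups (183 to 443 and 174 to 296 CPM) reached into theirs. The 5% therapy difference was -0.49 ± 0.28 (adjusted p = 0.854). That of 20% therapy, -0.64 ± 0.28, had an adjusted p of 0.113 and was not called either, though it passed in the fit of only those 6 libraries (-0.62, adjusted p = 0.0064) and without 5% prevention replicate 2 (adjusted p = 0.0447).

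Fabp5, at chr3:10077608-10081667 (plus strand), encodes a fatty acid carrier of macrophages, fat and skin. It was at 9.5, 18.6, 24.5, 50.3 and 7.9 CPM on normal diet and at 15.2, 28.5 and 19.6 CPM in FAT-MASH. The groups overlap, and 7 of the 10 chow libraries reached the lowest regimen value of 12.8 CPM. The difference was 0.27 ± 0.33 (adjusted p = 0.664), and Fabp5 was not called in any of the 17 comparisons.

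Spp1, at chr5:104582984-104588916 (plus strand), encodes osteopontin, a secreted matrix protein and cytokine. Its level was 35.4, 59.8, 44.5, 27.5 and 26.2 CPM on normal diet and 75.0, 71.1 and 89.5 CPM in FAT-MASH, with no overlap. The difference of 0.76 ± 0.42 was not called (adjusted p = 0.27), and it passed in the fit of only those 6 libraries (0.74, adjusted p = 0.0132). Per kilobase of annotated exon, Spp1 nevertheless had the highest level in FAT-MASH at 47.7 CPM per kb, followed by Lpl at 28.3, Cd9 at 20.0 and Clec7a at 14.9 CPM per kb. Gpnmb stood at 6.84, Cd63 at 6.71, Fabp5 at 5.92, Trem2 at 2.74, Itgax at 1.10 and Ccr2 at 1.09 CPM per kb. The lengths join all annotated exons of a gene (1648 bases for Spp1, 10478 for Lpl) and can exceed that of a transcript. The order therefore holds for this measure and does not rank the members by number of transcripts. Spp1 shares 309 of its 1648 exon bases with Gm42793 on the same strand, a gene at no more than 0.75 CPM in any library.

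Against FAT-MASH, 20% mannose raised Spp1 and Cd9 in both schedules and Cd63 in therapy, and no member was called with 5% mannose or called lower with either dose. With 20% prevention, 2 of the 10 rose, where 6.83% of genes tested were called higher. With 20% therapy, 3 of the 10 rose, where 10.2% were. With 5% prevention 0 of the 10 were called, with 2.27% of all genes called in either direction, and with 5% therapy 0 of 10, with 0.0358%. In the 5% prevention livers Spp1, Ccr2, Cd63 and Itgax were all the same above every FAT-MASH liver, and fits of only those 6 libraries called Spp1 and Ccr2. How large a share of all genes lay above in that way is not reported here. For the 5% groups, 2 and 0 members had an unadjusted p under 0.05 in edgeR, and DESeq2 also called 0 in each. All 4 comparisons share the same 3 FAT-MASH livers.

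Spp1 stood at 225, 228 and 134 CPM under 5% prevention and at 167, 171 and 439 CPM under 20% prevention. Under 5% therapy it was at 85.4, 104 and 66.1 CPM, and under 20% therapy at 464, 129.6 and 639.9 CPM. The 5% therapy livers lay around the FAT-MASH range of 71.1 to 89.5 CPM and all livers of the other 3 groups lay above it. The change from FAT-MASH was 1.72 ± 0.43 for 20% prevention (adjusted p = 0.0092) and 2.38 ± 0.44 for 20% therapy (adjusted p = 0.000538). For 5% prevention it was 1.32 ± 0.42 (adjusted p = 0.115), and for 5% therapy 0.12 ± 0.42 (adjusted p = 0.997). The 20% prevention call rested on replicate 3, without which the change was 1.10 (adjusted p = 0.0778). The 5% prevention difference passed in the fit of only those 6 libraries (1.33, adjusted p = 0.00581) and without 20% therapy replicate 2 (adjusted p = 0.0302).

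Cd9 was at 55.2, 62.9 and 64.2 CPM under 20% prevention and at 75.1, 79.0 and 79.0 CPM under 20% therapy. Every one of these livers was above the FAT-MASH livers, by 0.57 ± 0.14 (adjusted p = 0.00821) and 0.91 ± 0.14 (adjusted p = 8.55e-05). Cd63 was at 62.1, 38.5 and 59.1 CPM under 20% therapy, above all FAT-MASH livers, a rise of 1.10 ± 0.26 (adjusted p = 0.00461). Under 20% prevention Cd63 was at 24.2, 28.1 and 44.4 CPM, overlapping FAT-MASH (0.38 ± 0.26, adjusted p = 0.368). Trem2, Gpnmb and Clec7a had differences from FAT-MASH under 20% therapy of 0.07 ± 0.60, -0.51 ± 1.02 and -0.07 ± 0.39, none called.

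**Figure D3:**
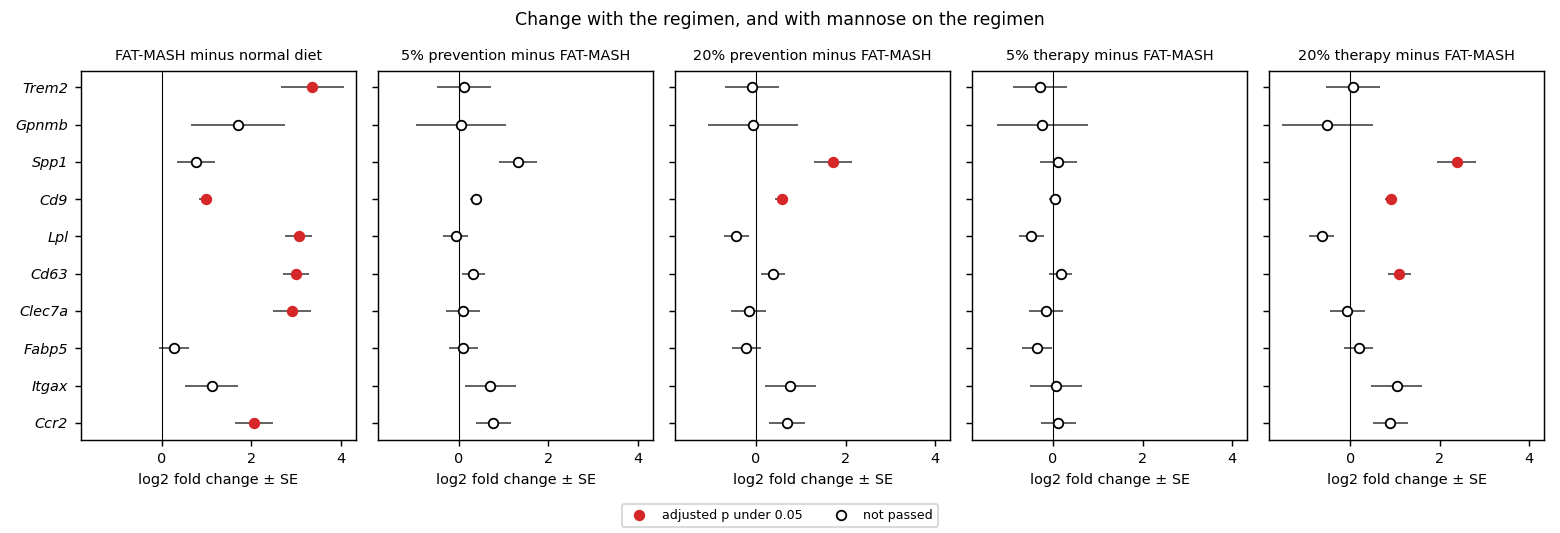
Log2 fold change ± SE of each gene for the regimen against normal diet and for the 4 mannose groups against FAT-MASH (filled red, adjusted p under 0.05; open, not passed). In the mannose panels, red points lie at Spp1 and Cd9 for both 20% schedules and at Cd63 for 20% therapy.

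Dose was compared within each schedule. In therapy, 20% mannose exceeded 5% for Spp1 (2.26 ± 0.44, adjusted p = 0.00108), Cd9 (0.87 ± 0.14, adjusted p = 0.000184) and Cd63 (0.92 ± 0.26, adjusted p = 0.0172), 3 of 10 where 8.33% of genes were called higher. The Cd63 call was lost without 5% therapy replicate 3 (adjusted p = 0.0872), without 20% therapy replicate 1 (0.0808) or 3 (0.0629), and in the fit of only those 6 libraries (0.0522). In prevention, 20% against 5% gave 0 of 10 calls (0.445% of genes in either direction), with Spp1 at 0.40 ± 0.42. Whether the dose difference itself differs between therapy and prevention was not tested.

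Prevention against therapy gave 0 of 10 calls at 5% mannose (0.194% of genes) and 0 of 10 at 20% (0.0818%). At 5%, Spp1 was at 134 to 228 CPM with prevention and 66.1 to 104 CPM with therapy, without overlap, a difference of 1.20 ± 0.42 (adjusted p = 0.246). At 20%, Cd9 was lower with prevention in all 3 livers (-0.34 ± 0.14, adjusted p = 0.301) and Cd63 differed by -0.71 ± 0.26 (adjusted p = 0.244). With edgeR, 2 members at each dose had an unadjusted p under 0.05 and none did for 20% against 5% prevention, and DESeq2 called 0 in these 3 comparisons.

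Against normal diet, most members were higher in every mannose group on the regimen. They numbered 8 of 10 with 5% prevention (12.3% of all genes), 8 with 20% prevention (18.2%), 6 with 5% therapy (7.04%) and 8 with 20% therapy (19.4%). Gpnmb and Fabp5 were called in none of the 4 groups, and Spp1 and Itgax not in 5% therapy. Log2 differences of the called genes ran up to 4.08 ± 0.30 for Cd63 in 20% therapy (adjusted p = 8.45e-09).

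On normal diet, mannose was tested within batch 2. No member was called with 5% mannose, where 0.0% of 18462 genes were, or with 20%, where 0.00542% were, and with edgeR 2 members had an unadjusted p under 0.05 at each dose and DESeq2 called 0. Clec7a was at 2.65 and 4.08 CPM (5%) and at 4.0, 3.61 and 3.89 CPM (20%), all below replicates 4 and 5 of normal diet, with differences of -0.93 ± 0.32 (adjusted p = 0.84) and -0.73 ± 0.28 (adjusted p = 0.818). Against all 5 normal-diet livers the ranges meet, since replicate 3 in batch 1 held 3.97 CPM. How far mannose acted differently on the regimen and on chow was fitted over all 25 libraries with batch as a term. It gave 0 of 10 calls at 5% (0.524% of 21373 genes) and 0 of 10 at 20% (5.67%), with 3 and 2 members at an unadjusted p under 0.05 in edgeR and 0 called by DESeq2. Spp1 differed by 1.44 ± 0.57 at 20% (adjusted p = 0.147).

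Lpl split the chow livers. It was at 94.5 CPM in normal diet replicate 4 and at 82.3, 86.6 and 62.7 CPM with 20% mannose, against 23.7 to 48.5 CPM in the other 6 chow livers. Fat-cell genes were high in the same livers: Adipoq, the adipokine adiponectin, was at 9.12 CPM in replicate 4 and 7.83 to 11.3 CPM with 20% mannose, at 3.89 CPM in replicate 1 and at no more than 0.248 CPM in the other 5. Plin1, a fat droplet coat protein, was at 8.01 CPM in replicate 4, at 6.19 to 21.6 CPM with 20% mannose and at 3.01 CPM in replicate 1. The summed level of the 6 adipocyte markers was 8.17 to 107.1 CPM in the normal-diet livers, 9.21 and 13.3 CPM with 5% mannose and 116.6 to 204.7 CPM with 20% mannose. Their part in the Lpl values was not tested. With both normal-diet replicates of the batch, neither mannose difference in Lpl was called (0.34 ± 0.37 at 20% and -1.31 ± 0.41 at 5%). Leaving out either one sets mannose against a single liver, whose spread is then assumed to be that of the mannose groups. On that footing Lpl was higher with 20% mannose without replicate 4 (1.5, adjusted p = 0.0111) and lower with 5% mannose without replicate 5 (-1.94, adjusted p = 0.00013). In regimen livers, where Lpl was at 160 to 443 CPM, Adipoq was at no more than 1.09 CPM. Fabp5 was also highest in replicate 4, at 50.3 CPM.

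Some bile duct genes stood close to Spp1. Over the 18 libraries of batch 1 and 14017 genes with a mean of at least 1 CPM, the 5 genes whose centred log2 profile differed least from that of Spp1 were Ehf (root mean square difference 0.22), Scara3 (0.24), Lamc3, Cftr and Epcam (each 0.30). Cftr, a chloride channel, and Epcam, an adhesion molecule, are in the list of 9 cholangiocyte markers, and the nearest member was Itgax at 0.65. Epcam was at 2.57 to 3.94 CPM in FAT-MASH, 8.07 to 21.3 CPM with 20% prevention and 5.92 to 33.9 CPM with 20% therapy. The marker Krt19 overlapped FAT-MASH (3.94 to 5.98 CPM) with 20% prevention (2.73 to 10.5) and with 20% therapy (4.04 to 10.6). Krt7, at 2.03 to 3.06 CPM in FAT-MASH, overlapped with 20% prevention (1.97 to 6.78) and lay above with 20% therapy (4.21 to 7.28). Of the 9 markers 4 rose with 20% prevention (median log2 fold change 0.74) and 5 with 20% therapy (1.26), among them Epcam (2.08 ± 0.47 and 2.79 ± 0.48) and Sox9 (0.80 ± 0.20 and 1.04 ± 0.20). Of all genes, 6.83% and 10.2% were called higher in these 20% prevention and 20% therapy comparisons. The 9 markers' summed level follows. Their summed level was 43.2 to 56.0 CPM in FAT-MASH, 56.2 to 102.8 CPM with 20% prevention and 50.6 to 128.4 CPM with 20% therapy. The 20% therapy liver with the least Spp1, replicate 2 at 129.6 CPM, also had the least Epcam, at 5.92 CPM. The part of bile duct cells in the rises of Spp1, Cd9 and Cd63 was not tested. None of the 10 pan-macrophage markers rose with either 20% schedule (median log2 fold changes 0.17 and 0.19).

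Other cell types' markers also differed between the 20% mannose livers and FAT-MASH. With 20% therapy the monocyte markers summed to 37.2 to 50.8 CPM against 18.6 to 27.6 CPM in FAT-MASH (1 of 6 rose, Cx3cr1), and the neutrophil markers to 25.1 to 37.0 against 15.9 to 18.0 CPM (3 of 6 tested rose). The hepatocyte markers summed to 63084 to 70915 CPM against 86144 to 95168 CPM (4 of 6 fell), and none of these 3 pairs of ranges overlapped. The sums of mesothelial, adipocyte and melanocyte markers were also lower than in FAT-MASH without overlap. The adipocyte sum was nearly all Fabp4 with 20% therapy (12.9 to 16.6 CPM, against 18.2 to 22.5 CPM in FAT-MASH). In the melanocyte list Pmel went the other way, at 0.563 to 0.743 CPM against 0.416 to 0.559 CPM. Mlana, Tyr and Tyrp1 were at or near 0 in both groups, so the lower melanocyte sum lay mostly in Dct. Of 7 stellate cell markers 2 rose, of 6 sinusoidal markers 2 fell, and of 9 Kupffer cell markers 1 rose and 1 fell. Of all genes, 10.2% were called higher and 11.3% lower in 20% therapy against FAT-MASH. Single calls in lists this short are not results about the lists. With 20% prevention the neutrophil sum (19.4 to 31.4 CPM) was above that of FAT-MASH and the dendritic, adipocyte and melanocyte sums were below, while the monocyte (27.1 to 43.3 CPM) and hepatocyte (75030 to 94353 CPM) sums overlapped. Fabp4 again made up nearly all of the adipocyte sum, at 11.7 to 13.9 CPM. With 5% prevention the monocyte sum was at a median of 35.4 CPM, and it and the neutrophil, cholangiocyte and B cell sums were above every FAT-MASH liver. The part of these cell types in the members' differences was not tested.

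**Figure D4:**
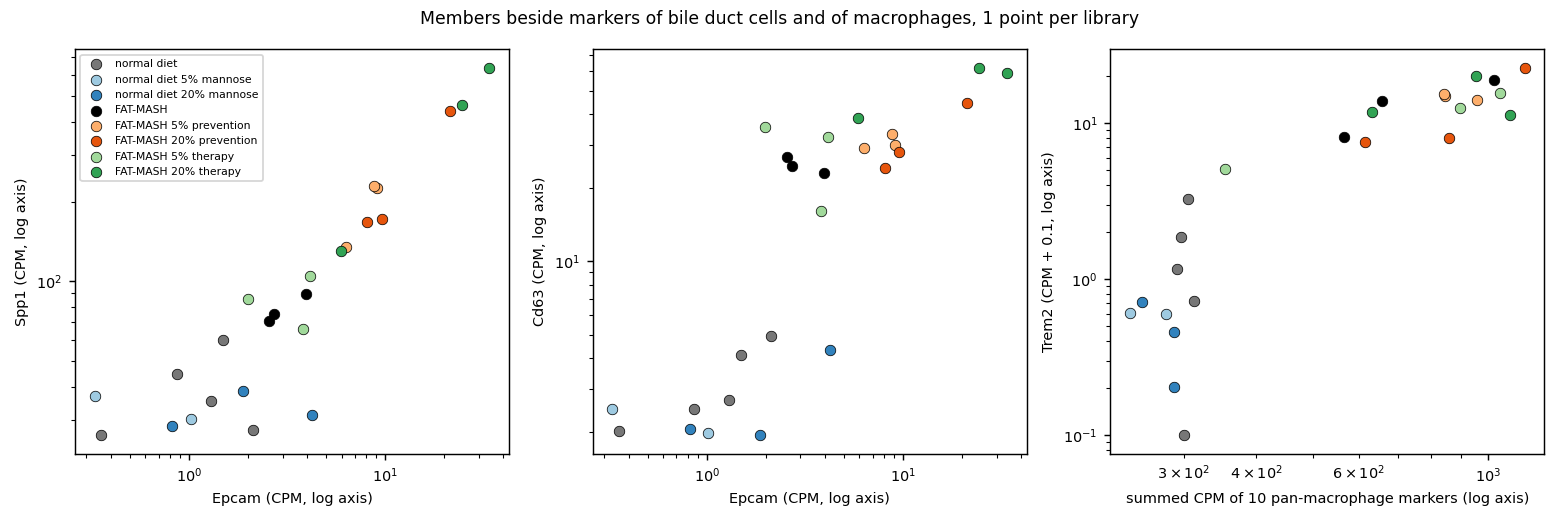
Spp1 and Cd63 against Epcam, and Trem2 against the summed CPM of 10 pan-macrophage markers (all log axes), 1 point per library coloured by group. The highest Spp1 value, 639.9 CPM in 20% therapy replicate 3, stands at the highest Epcam value, 33.9 CPM; Trem2 is at 5.01 CPM in the regimen liver with the lowest macrophage sum, 5% therapy replicate 3.

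Trem2 and Gpnmb had other neighbours. The 5 non-members most like Trem2 were Capg, an actin capping protein of macrophages (0.53), Cd63-ps (0.59), the peptidase gene Cpe (0.60) and the collagen genes Col1a1 and Col3a1 (each 0.62), with Clec7a the nearest member (0.49). Those most like Gpnmb were Mmp12 (0.74), Capg (1.18), Lgals3, which encodes galectin-3 (1.20), Cpe (1.23) and Cd63-ps (1.24), with Trem2 the nearest member (0.83). These likenesses are descriptions over 3 chow and 15 regimen livers.

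Macrophage markers as a whole rose with the regimen, where 7.81% of all genes were called higher. All 10 pan-macrophage markers passed in FAT-MASH against normal diet (median 1.24), among them Adgre1 (1.82 ± 0.40), which encodes F4/80, and the Fc receptor gene Fcgr1 (1.76 ± 0.33). Of the 9 Kupffer cell markers 5 rose, including Cd5l (2.00 ± 0.38) and Clec4f (0.88 ± 0.28), and 3 of 6 monocyte markers, including Chil3 (4.25 ± 0.89). Set per 1000 CPM of the summed pan-macrophage markers within each library, Trem2 was at a median of 1.99 in the batch 1 chow livers and 18.5 in FAT-MASH, Cd63 at 8.64 and 40.5, Clec7a at 15.5 and 53.2, and Lpl at 97.6 and 447.6. For these 4 genes every FAT-MASH liver was above every batch 1 chow liver in that ratio. Over all 10 chow livers this held for Trem2, Cd63 and Clec7a but not for Lpl, at 318.6 in normal diet replicate 4 and at 323.0 and 300.1 in a pair of 20% mannose livers, against 263.0 in FAT-MASH replicate 3. For Spp1 (148 and 108.0), Cd9 (61.4 and 60.1), Fabp5 (60.9 and 26.9), Gpnmb, Itgax and Ccr2 the ratios overlapped. With 20% therapy the Cd63 ratio was 57.0 to 62.0, above the 22.5 to 43.2 of FAT-MASH.

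In some groups many members were highest or lowest in the same liver. In 5% therapy, replicate 2 was highest in its group for 9 of the 10 genes and replicate 3 lowest for 8, and their pan-macrophage sums were 1048 and 354.1 CPM. In 20% prevention, replicate 3 was highest for all 10 genes, with a sum of 1157 CPM. The sum was not always the guide: in 5% prevention, replicate 2 was highest for 8 genes with the lowest sum of its group, 839.6 CPM. The share of all genes that were highest or lowest in these livers is not reported here. The part of macrophage content in these values was not tested.

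Partners of the members were counted from fixed lists, in FAT-MASH against normal diet, where 7.81% of all genes were called higher. Of 11 genes of TREM2 signalling 4 rose, led by its adaptor Tyrobp (1.38 ± 0.31, adjusted p = 0.00503), the kinase gene Syk (0.95 ± 0.27) and Vav1 (1.20 ± 0.36). Of 6 genes downstream of dectin-1, 2 rose, Fcer1g (0.98 ± 0.25) and again Syk. Of 8 tested CCR2 ligands, myeloid growth factors and their receptors 4 rose, with Ccl2, the main CCR2 ligand, at 2.16 ± 0.53 (adjusted p = 0.00993) and Csf1r, the receptor macrophages need to survive, at 1.05 ± 0.28. Of 10 osteopontin receptors 4 rose, among them Itga4 (0.99 ± 0.20) and Cd44 (1.14 ± 0.31). The median log2 fold changes of these lists were 0.87, 0.60, 0.92 and 0.48, against 0.03 for all genes.

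Lipid-handling partners divided. Of 12 genes around lipoprotein lipase 3 rose, Angptl4, its inhibitor (1.59 ± 0.28), the fatty acid transporter gene Cd36 (1.23 ± 0.28) and Lipc, hepatic lipase (0.44 ± 0.10). Lmf1, which matures the enzyme, fell (-0.56 ± 0.10). Of 20 lysosomal and foam-cell genes 7 rose and 1 fell, the risers including Abcg1, a cholesterol exporter (1.37 ± 0.28), and the cathepsin genes Ctss (1.37 ± 0.32) and Ctsd (0.57 ± 0.13), and the faller Acp5 (-0.29 ± 0.08), where 5.92% of all genes were called lower. Of 10 other tetraspanins 1 rose, Cd53 (1.57 ± 0.32), a share near the 7.81% of all genes called higher. Of 3 tested beta2 integrin genes Itgb2 rose (1.20 ± 0.33), and of 4 tested fatty acid binding protein genes Fabp2, Fabp7 and Fabp4 (1.43 ± 0.13, 1.22 ± 0.27 and 0.81 ± 0.19). The medians of these 5 lists were 0.17, 0.33, 0.19, 1.18 and 1.01.

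With 20% mannose on the regimen the partners moved in different ways from FAT-MASH, where 6.83% (prevention) and 10.2% (therapy) of all genes were called higher and 8.26% and 11.3% lower. The CCR2 ligand genes Ccl2 and Ccl7 rose with 20% prevention (1.60 ± 0.47 and 2.38 ± 0.72) and with 20% therapy (2.08 ± 0.47 and 2.65 ± 0.72), as did Csf1, so that 3 of the 8 genes rose in each. The osteopontin receptor subunit genes Itgav and Itgb1 rose in both, 2 of 10. Of the 12 lipoprotein lipase partners 4 fell with 20% prevention and 7 with 20% therapy, led by Lipc (-0.96 ± 0.10 and -1.27 ± 0.10) and Apoc3 (-1.01 ± 0.14 and -0.84 ± 0.14), and none rose. Of 11 TREM2 signalling genes 1 fell in both, a share near that of all genes: Apoe, a ligand (-0.74 ± 0.12 and -0.90 ± 0.12). The tetraspanin gene Tspan8 rose in both (2.13 ± 0.40 and 2.83 ± 0.40), and Plin2, a lipid droplet coat gene, rose by 0.84 ± 0.19 and 0.95 ± 0.19.

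Markers of other cell types were counted from normal diet to FAT-MASH, where 7.81% of all genes were called higher and 5.92% lower. Of these lists, 5 of 7 stellate cell markers rose, 3 of 6 tested neutrophil markers, 2 of 6 sinusoidal markers, 2 of 3 mesothelial markers and 1 of 6 dendritic cell markers, while 0 of 9 cholangiocyte and 0 of 4 B cell markers did. Of 7 T and NK cell markers 1 fell (Cd4), and 1 of 6 hepatocyte markers (Cps1) and 1 of 2 tested melanocyte markers (Dct) fell too. A single call in a list this short is not a result about the list. Of 3 tested adipocyte markers Fabp4 rose; pancreatic acinar markers gave 0 calls for 1 tested gene, and skeletal muscle markers were not tested for want of counts. The dendritic cell markers summed to 11.6 to 13.1 CPM on normal diet and 18.9 to 19.2 CPM in FAT-MASH; their part in Itgax was not tested.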

How the data were processed

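Poly-A RNA of 25 mouse livers was sequenced. Reads were mapped with STAR (build GRCm39) and summarised per gene by featureCounts, which is version 2.0.6 per the submitters' processing notes and 2.0.1, with GENCODE mouse release M31, per the file headers. The authors' deposited values are raw counts. The counting command has no pair or strand option, per the file headers: 78.5% of counts from 1 to 20 are even, so halved counts were tried as an alternative added after seeing the data, and reads of overlapping genes on either strand cannot be told apart.

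Counts were tested with edgeR 4.0.16 (R 4.3.3) by the quasi-likelihood test with TMM scaling, filterByExpr and Benjamini-Hochberg adjustment at 0.05. The 18 libraries of batch 1 were fitted together (19571 genes), the 7 of batch 2 together (18462), and all 25 with a batch term for differences between diets (21373). CPM levels use 1 TMM scaling over all 25 libraries. Libraries of a group all differed by more than counting noise (chi-square at least 21.2 per degree of freedom over 23 pairs). Alternatives were DESeq2 1.42.0, no filter, library totals, a joint fit of the 25 libraries, a fit of the compared groups alone, the replicate block and leaving out each library. The test was checked before use on simulated counts with known changes. These took mean levels and library sizes from these counts but a single common spread for all genes. They do not show how the test fares at the members' own spreads. The p-values set group differences against the spread between mice, estimated over all groups of a fit together and with information shared between genes.

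The genes named are the 10 members, up to 4 genes of a list with the smallest p in a comparison, the 5 genes most alike in root mean square difference of centred log2(CPM + 0.5) to Trem2, Gpnmb or Spp1, and genes at least 4-fold apart in a normal-diet library where a member was. Some genes that this rule selects are not reported here. The members and lists were chosen with earlier results of these data known. Promoters come from RefSeq, which had an entry for 8 members.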

Additional observations from a re-analysis of the deposited data

Results flagged for a closer look

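Among the 5 normal-diet livers, Gpnmb at 40.3 CPM in replicate 2 lay far from the rest: the gap to the next liver (0.972 CPM) was 0.976 of the whole range, past the critical value of 0.71 for 5 samples in Dixon's test. Itgax at 4.96 CPM in the same liver had a gap of 0.753 to the next (1.43 CPM), also past it. The other 8 genes had no such liver. About 1 group in 20 passes this value by chance if the values are normally distributed, and 10 genes were looked at. The values were untransformed CPM of livers from 2 batches. The test was not run on the log scale or within a batch, so the flags hold for this scale and this pooling only. Both genes stand beside Mmp12 at 19.9 CPM in that liver, and the groups' log2 differences with and without it are 1.70 and 8.21 for Gpnmb and 1.11 and 2.21 for Itgax (FAT-MASH against normal diet). The size of 8.21 rests on the 6 and 4 counts of Gpnmb in normal diet replicates 1 and 3.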

How the results depend on the processing

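DESeq2, halved counts and all 25 libraries with a batch term gave the same number of called members in every comparison they were run for, as did the replicate block (13 comparisons, for example 6 in FAT-MASH against normal diet, 3 in 20% therapy against FAT-MASH). No broad pairing of the mice by replicate number was seen: of 45 same-numbered pairs 1 correlated above 0.1 (range -0.16 to 0.18), and 5 of 18 libraries matched best with their own number. A pairing that touches few genes could escape this check. Library totals alone moved the median of all genes by up to 0.30 (20% therapy against FAT-MASH) and changed 2 of the 17 counts by 1 gene. No called member changed direction in any run.

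Without a filter on low counts the numbers of called members rose in each of the 17 comparisons but that of 20% mannose on normal diet (0): from 6 to 9 in FAT-MASH against normal diet, and from 8 to 9, 8 to 9, 6 to 9 and 8 to 10 for 5% prevention, 20% prevention, 5% therapy and 20% therapy against normal diet. They rose from 0 to 2 (5% prevention against FAT-MASH), 2 to 6 (20% prevention), 0 to 1 (5% therapy) and 3 to 7 (20% therapy). They went from 0 to 1 for 20% against 5% prevention, 3 to 6 for 20% against 5% therapy, 0 to 3 for prevention against therapy at 5% and at 20%, 0 to 2 for 5% mannose on normal diet, and 0 to 9 and 0 to 3 for the differences between diets at 5% and 20%. The standard error of Gpnmb in FAT-MASH against normal diet was 0.14 there and 1.05 with the filter; the cause was not tested. Fits of only the groups compared called 2 members for 5% prevention and 6 for 20% therapy against FAT-MASH. The shares of all genes called in these fits and in those without a filter are not reported here. The counts therefore describe the processing and are not a result about the members.

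Leaving out 1 library at a time gave 6 to 8 called members in FAT-MASH against normal diet, 0 to 1 for 5% prevention, 1 to 2 for 20% prevention, 0 for 5% therapy and 3 to 4 for 20% therapy against FAT-MASH. Against normal diet it gave 7 to 9, 7 to 9, 6 to 8 and 7 to 9 in that order, for 20% against 5% therapy 2 to 4, and for 5% and 20% mannose on normal diet 0 to 1 each, where leaving out a normal-diet liver leaves 1, assumed to vary like the other groups. The differences between diets had 0 to 2 (5%) and 0 to 1 (20%), and the other 3 comparisons 0. The shares of all genes called with a library left out are not reported here either.

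Over the 24 runs other than that without a filter, adjusted p in FAT-MASH against normal diet spanned 0.000213 to 0.569 for Gpnmb, 0.0335 to 0.552 for Itgax and 0.0132 to 0.522 for Spp1. In 20% therapy against FAT-MASH it spanned 0.0064 to 0.427 for Lpl and 0.0304 to 0.437 for Ccr2, in 20% prevention against FAT-MASH 0.000998 to 0.0778 for Spp1, and in 20% against 5% therapy 0.00373 to 0.0872 for Cd63. Against FAT-MASH, the standard errors for 20% therapy were 0.60 for Trem2, 1.02 for Gpnmb and 0.57 for Itgax (log2), against 0.14 for Cd9 and 0.28 for Lpl, so the precision with 3 livers a group differed between members.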
